A study of Homo sapiens with 7 samples.

Results

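The human miRNAs hsa-miR-130a-3p, hsa-miR-130b-3p, hsa-miR-301a-3p, hsa-miR-301b-3p and hsa-miR-454-3p share 1 seed, the run of bases 2 to 8 with which a miRNA pairs with its target mRNAs. They were picked by name together with hsa-miR-130a-5p and hsa-miR-130b-5p, the strands from the opposite arm of their hairpins, which gave 7 members (5 strands of the 3p arm and 2 of the 5p arm) of the 2652 miRNAs listed in the count files. The species prefix is left out from here on. The counts came from HepG2, an established line of human hepatocellular carcinoma cells labelled wild type. Cells received siRNA 2 or siRNA 1 against TEAD1 for 24, 36 or 48 h, with 1 library for each siRNA and time, and 1 further library came from untreated cells at 0 h. The question, from the series' title, was which miRNAs depend on TEAD1, which binds DNA for YAP and TAZ, the co-activators that the Hippo pathway restrains. Cells given a control siRNA are not among these libraries, so the siRNA's target, the transfection and the time in culture cannot be told apart against the untreated cells. The TEAD1 mRNA is not measured by a small RNA library, so how far TEAD1 was lowered was not checked here.

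A miRNA hairpin is cut into a pair of strands, and the strand loaded into Argonaute, the guide, lowers the mRNAs that its seed pairs with, while the other, the passenger, is mostly degraded. The family is known for repressing regulators of TGF-beta signalling. In liver, miR-130a has been described as induced by YAP and as repressing VGLL4, a protein that competes with YAP for TEAD factors.

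The 5 strands of the 3p arm are printed as the deposited files give them, with the seed in capitals, because it is what joins them. The letters AGUGCAA stand at bases 2 to 8 in all 5.
miR-130a-3p: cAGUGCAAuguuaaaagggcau
miR-130b-3p: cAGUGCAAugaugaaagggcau
miR-301a-3p: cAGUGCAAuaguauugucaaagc
miR-301b-3p: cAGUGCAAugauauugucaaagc
miR-454-3p: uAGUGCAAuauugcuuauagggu
Outside the seed, miR-130a-3p and miR-130b-3p differed at 2 of 22 bases (U11A and A13G, counted from the 5′ end, with the base of miR-130a-3p first). miR-301a-3p and miR-301b-3p differed at 2 of 23 bases (A10G and G11A, with the base of miR-301a-3p first). How reads that match both members of such a pair were assigned is not given in the sources used here, so the split within each pair is less certain than its sum. The strands of the 5p arm carry other letters at bases 2 to 8, again in capitals.
miR-130a-5p: gCUCUUUUcacauugugcuacu
miR-130b-5p: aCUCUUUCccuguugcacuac

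Of the 7 members and the 3 further arms of the same hairpins (miR-301a-5p, miR-301b-5p and miR-454-5p), 8 of 10 were matched to RefSeq's annotation of GRCh38.p14. miR-301a-3p (chr17:59151149-59151171) and miR-454-3p (chr17:59137787-59137809) lie on the minus strand in introns of SKA2, a gene for a kinetochore subunit, with 13299 bases between the hairpins' nearest mature strands. miR-301b-3p (chr22:21653025-21653047) and miR-130b-5p (chr22:21653316-21653336) lie on the plus strand in an intron of the noncoding transcript AP000553.1, with 268 bases between them, and miR-130b-3p (chr22:21653354-21653375) lies in an exon of it. miR-130a-5p (chr11:57641212-57641233) lies on the plus strand in an intron of the noncoding transcript AP000662.1. Host genes and exons are those of GENCODE release 29. The 2 hairpins that give both a 3p and a 5p member are printed because the balance of the arms is one of the results below. The mature strands are in capitals, the 5p strand first, and the sequences are RefSeq's (GRCh38.p14, chr11:57641198-57641286 and chr22:21653304-21653385, plus strand).
MIR130A: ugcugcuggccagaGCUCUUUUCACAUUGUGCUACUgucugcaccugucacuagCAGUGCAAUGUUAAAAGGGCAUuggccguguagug
MIR130B: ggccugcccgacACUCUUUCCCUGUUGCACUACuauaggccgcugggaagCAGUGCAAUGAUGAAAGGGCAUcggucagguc

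The 7 libraries held 13134601 to 15591345 reads in all. Reads assigned to miRNAs made up 13.4% to 26.5% of the siRNA-treated libraries (1920832 to 3739729 reads) and 43.1% of the untreated library (6171851 reads). Levels are given as CPM, counts scaled to the library's miRNA reads with TMM factors, where 3 reads were worth 0.886 to 1.52 CPM in siRNA-treated libraries and 0.559 CPM in the untreated one. Intervals are 95% exact Poisson or Clopper-Pearson intervals and cover counting error only. The 2 libraries of 36 h stood far apart from each other, with a standard deviation of 1.22 over miRNAs in the log2 difference between siRNA 2 and siRNA 1, against 0.57 at 24 h and 0.50 at 48 h. Over the same 458 miRNAs, the siRNA 2 library of 36 h had a root mean square log2 difference of 0.53 and 0.65 to the 48 h libraries and of 1.15 and 1.17 to the 24 h libraries. The siRNA 1 library of 36 h had 1.08 and 1.09 to the 48 h libraries and 0.65 and 0.70 to the 24 h libraries. The labels were used as given, and a difference in pace between the siRNAs, a library that stands apart and a library with another time than its label cannot be told apart. The edgeR tests at 48 h, the arm test and the nearest profiles are given with and without these libraries. Nothing in the labels says that the 2 libraries of a time came from separate cultures beyond their different siRNAs, so p-values measure the spread between these libraries. The tests estimate that spread partly from all miRNAs together.

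In untreated cells the family was dominated by 1 strand. miR-454-3p had 2236 reads, or 417 CPM (95% interval 400 to 434), and ranked 95 of the 1137 miRNAs with a read. It made up 74.4% (72.8 to 76.0%) of the 3004 reads of the 5 strands of the 3p arm. miR-130b-3p followed at 54.6 CPM (48.5 to 61.2), miR-130a-3p at 45.1 CPM (39.6 to 51.2) and miR-301a-3p at 38.6 CPM (33.5 to 44.2), and in this order the interval of each overlapped that of the next. miR-301b-3p was the scarcest, with 26 reads and 4.85 CPM (3.17 to 7.10). miR-130b-5p, at 77.2 CPM (69.9 to 85.0), stood above its partner strand miR-130b-3p, while miR-130a-5p, at 7.46 CPM (5.33 to 10.2), stood below miR-130a-3p. The 7 strands are 21 to 23 bases long, and the part of length and of ligation in these levels was not tested.

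By 48 h the 5 strands of the 3p arm were lower than at 24 h with both siRNAs, and lower than in the untreated library. miR-454-3p had 417 CPM in the untreated library, then 485, 184 and 206 CPM with siRNA 2 and 462, 303 and 243 CPM with siRNA 1 at 24, 36 and 48 h. Both of its 24 h libraries stood above the untreated one and the other 4 below it. miR-130a-3p had 45.1 CPM in the untreated library, then 52.3, 25.6 and 27.5 CPM with siRNA 2 and 43.1, 50.1 and 20.1 CPM with siRNA 1. Its siRNA 1 library of 36 h was level with the 24 h libraries, and its siRNA 2 library of 36 h with the 48 h libraries. miR-130b-3p had 54.6 CPM in the untreated library, then 48.5, 30.1 and 24.2 CPM with siRNA 2 and 37.5, 58.2 and 29.7 CPM with siRNA 1. Its 48 h level was 49.9% of its 24 h level with siRNA 2 and 79.1% with siRNA 1, the smallest drop of the 5 with siRNA 1.

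The SKA2-hosted miR-301a-3p had the highest ratio of its highest to its lowest CPM among the 5. It stood at 38.6 CPM in the untreated library, then at 48.9, 1.65 and 2.92 CPM with siRNA 2 and at 27.2, 41.0 and 9.17 CPM with siRNA 1. These rest on 117, 4 and 7 reads with siRNA 2 and 92, 81 and 21 reads with siRNA 1, against 207 reads in the untreated library. At 48 h it was thus at 5.97% of its 24 h level with siRNA 2 and at 33.7% with siRNA 1, and the groups of 2 libraries did not overlap. miR-301b-3p, at 4.85 CPM in the untreated library, had 14.6, 2.06 and 1.67 CPM with siRNA 2 and 6.80, 13.2 and 1.75 CPM with siRNA 1. Its 48 h values stand on 4 reads each, just over the 3 reads taken as the floor of detection, and its 95% intervals at 48 h (0.455 to 4.27 CPM with siRNA 2, 0.476 to 4.47 CPM with siRNA 1) overlapped that of the untreated library.

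**Figure D1:**
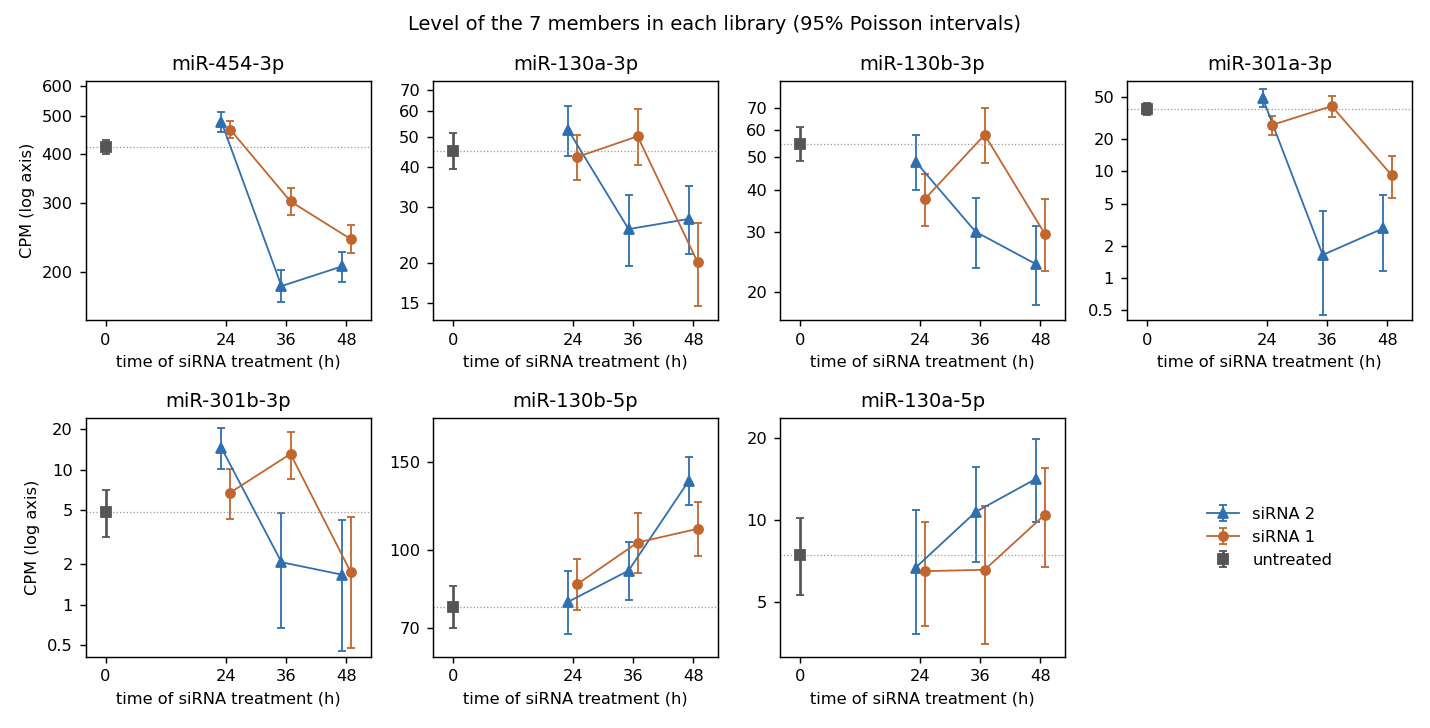
CPM (log axis) of the 7 members in each of the 7 libraries against hours of siRNA treatment, with siRNA 2 as triangles, siRNA 1 as circles, the untreated library as a square at 0 h with a dotted line at its level, and 95% Poisson intervals as bars. All 5 strands of the 3p arm are lower at 48 h than at 24 h with both siRNAs, and miR-130b-5p and miR-130a-5p are higher, while the 2 libraries of 36 h differ most for miR-301a-3p (1.65 CPM with siRNA 2 and 41.0 CPM with siRNA 1).

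Summed over the 5 strands of the 3p arm, the level was 560 CPM in the untreated library, 613 ± 50.8 CPM after 24 h, 354 ± 157 CPM after 36 h and 283 ± 28.8 CPM after 48 h of siRNA (SD, n = 2 at each time). The 48 h mean was 50.6% of the untreated value. The 24 h mean lay above the untreated value on this scale, but at 56.7% of it when counts were scaled to all reads, where the 36 h and 48 h means were at 26.0% and 23.2%. With the total of miRNA reads as the scale, the 48 h mean was at 64.7%. At 48 h the sum was 40.5% of its 24 h level with siRNA 2 and 52.6% with siRNA 1. miR-454-3p kept its place as the main strand, with 78.6% of the family's 3p reads at 48 h with siRNA 2 and 80.0% with siRNA 1. The share of miR-301a-3p at 48 h was 1.11% with siRNA 2 (0.448 to 2.28%) and 3.02% with siRNA 1 (1.88 to 4.58%), against 6.89% (6.01 to 7.86%) in the untreated library.

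All 5 of 5 strands of the 3p arm had both 48 h libraries below both 24 h libraries, an order that 33.0% of the 458 miRNAs tested showed (those averaging at least 10 reads a library). All 5 also had both 48 h libraries below the untreated one, as did 43.9% of the miRNAs tested. In edgeR's quasi-likelihood test over all 7 libraries, with Benjamini-Hochberg adjustment over the 458 miRNAs, none of this reached the threshold of 0.05: 0 of 7 members and 0 of 458 miRNAs (0.0%) were called at 48 h against 24 h. At an unadjusted p under 0.05 there were 84 of the 458, DESeq2 called 21 (4.59%) with no member among them, and limma-voom called 0. The largest log2 fold changes of 48 h over 24 h were those of miR-301a-3p, at -2.65 ± 1.22 (SE, adjusted p = 0.292), and miR-301b-3p, at -2.60 ± 0.96 (adjusted p = 0.249). miR-454-3p, with the most reads, had -1.08 ± 0.32 (adjusted p = 0.244). miR-130a-3p had -0.999 ± 0.43 (adjusted p = 0.276) and miR-130b-3p -0.67 ± 0.42 (adjusted p = 0.411). The median of the 5 was -1.08, beside 0.03 over all miRNAs tested.

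The 36 h libraries are no part of this contrast but enter the estimate of the spread, and the calls turn on them. Without both of them, edgeR called 134 of 467 miRNAs (28.7%) at 48 h against 24 h, 17.8% as lower, and 4 of the 7 members were called lower. These were miR-301a-3p (-2.67 ± 0.40, adjusted p = 1.8e-09), miR-454-3p (-1.09 ± 0.24, adjusted p = 5.6e-05), miR-301b-3p (-2.61 ± 0.63, adjusted p = 0.000298) and miR-130a-3p (-1.01 ± 0.32, adjusted p = 0.00751). miR-130b-3p was not called, at -0.69 ± 0.31 with an adjusted p of 0.0825. The number called was also 4 when only the siRNA 2 library of 36 h (28.4% of miRNAs called) or only the siRNA 1 library of 36 h (26.6%) was left out. If the spread at 36 h is the true spread of such libraries, these p-values are too small. They also rest largely on a spread pooled over all miRNAs tested, not on each miRNA's own values alone.

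Scaling to the total of miRNA reads raised the median of all 458 miRNAs to 0.37 (log2, 48 h over 24 h) and left that of the 5 strands at -0.74, and scaling to all reads put these medians at -0.15 and -1.26. The 5 strands were below 0 under each of these scales. miRNAs with at most 50% G and C had a median of -0.20 (n = 254) and those above it one of 0.25 (n = 204), and the members hold 34.8% to 47.6%. With a linear trend on this content removed in each library, miR-301a-3p stood at -2.31, miR-301b-3p at -2.27, miR-130a-3p at -0.71, miR-454-3p at -0.61 and miR-130b-3p at -0.52.

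**Figure D2:**
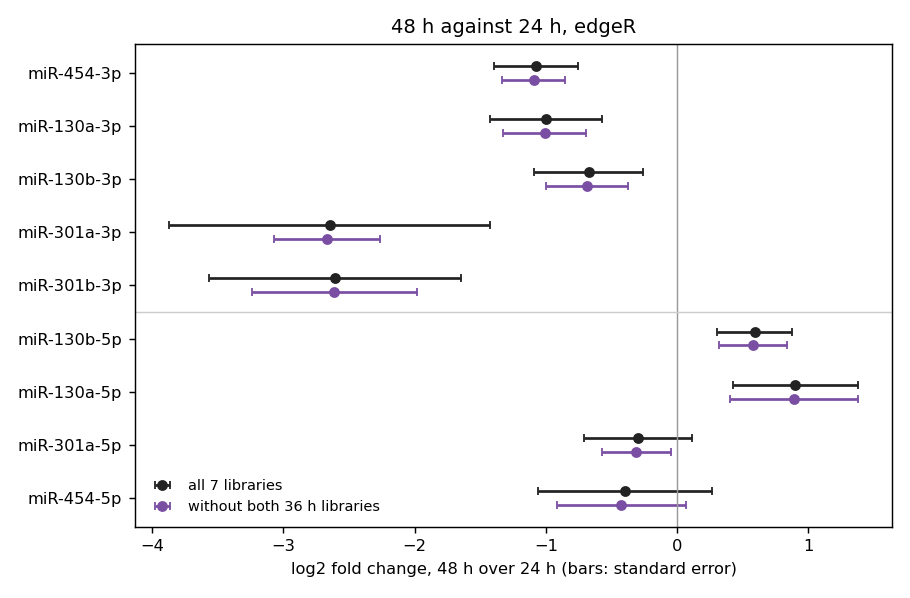
log2 fold change of 48 h over 24 h (edgeR, bars give the standard error) for the 7 members and 2 further arms of the same hairpins, from the fit over all 7 libraries in black and the fit without both 36 h libraries in violet. The 5 strands of the 3p arm lie between -2.67 and -0.67 in both fits, the 5p strands of miR-130b and miR-130a at 0.58 to 0.90, and leaving out 36 h narrows the error of miR-301a-3p from 1.22 to 0.40.

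The 5p strands of the miR-130 hairpins were higher at 48 h than at 24 h with both siRNAs, the opposite side from their 3p partners. miR-130b-5p had 77.2 CPM in the untreated library, then 79.0, 91.2 and 138 CPM with siRNA 2 and 85.7, 104 and 110 CPM with siRNA 1 at 24, 36 and 48 h. It was above the untreated library in 6 of 6 siRNA-treated libraries, as were 10.3% of the miRNAs tested. miR-130a-5p had 7.46 CPM in the untreated library, then 6.69, 10.7 and 14.2 CPM with siRNA 2 and 6.50, 6.58 and 10.5 CPM with siRNA 1, from 13 to 34 reads in a siRNA-treated library. Both had both 48 h libraries above both 24 h libraries, an order that 28.2% of the miRNAs tested showed. Neither passed the test: at 48 h over 24 h miR-130a-5p had a log2 fold change of 0.90 ± 0.48 (edgeR, adjusted p = 0.354) and miR-130b-5p one of 0.59 ± 0.29 (adjusted p = 0.311). Without both 36 h libraries their adjusted p-values were 0.157 and 0.0795, and with total miRNA reads as the scale of that fit both were called higher, as were 22.5% of the miRNAs tested.

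The levels and tests gave the arms as separate strands, and the share of the 5p strand among the reads of its hairpin sets them side by side within 1 library, with no scaling between libraries. In miR-130a the 5p share was 14.2% in the untreated library, 12.2 ± 1.24% after 24 h, 20.6 ± 12.7% after 36 h and 34.1 ± 0.20% after 48 h (SD, n = 2). The 48 h shares were 34.0% with siRNA 2 (24.8 to 44.2%) and 34.3% with siRNA 1 (23.3 to 46.6%), and both intervals lay above that of the untreated library (10.3 to 18.8%). In miR-130b the 5p strand already held most reads, with 58.6% in the untreated library, 65.8 ± 5.36% after 24 h, 69.6 ± 7.85% after 36 h and 81.9 ± 4.41% after 48 h. The 48 h shares of miR-130b were 85.1% with siRNA 2 and 78.8% with siRNA 1, both above its 24 h shares of 62.0% with siRNA 2 and 69.5% with siRNA 1.

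The other 3 hairpins were described in the same way. In miR-301a the 5p share was 77.1% in the untreated library, 69.2 ± 20.1% after 24 h, 85.3 ± 18.7% after 36 h and 93.1 ± 4.65% after 48 h. In miR-454 the 3p strand held nearly all reads throughout, and the 5p share was 2.10% in the untreated library and 2.02 ± 1.52%, 3.55 ± 0.42% and 3.23 ± 0.13% at the 3 times. miR-301b had 11 to 39 reads over both arms in a siRNA-treated library, too few for more than the values in the plot of arm shares. miR-301a-5p and miR-454-5p had log2 fold changes of -0.30 ± 0.41 and -0.40 ± 0.66 at 48 h over 24 h (edgeR, adjusted p = 0.725 and 0.766). The siRNAs differed in direction here: miR-301a-5p at 48 h was at 132% of its 24 h level with siRNA 2 and 59.5% with siRNA 1, and miR-454-5p at 154% with siRNA 2 and 53.2% with siRNA 1.

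**Figure D3:**
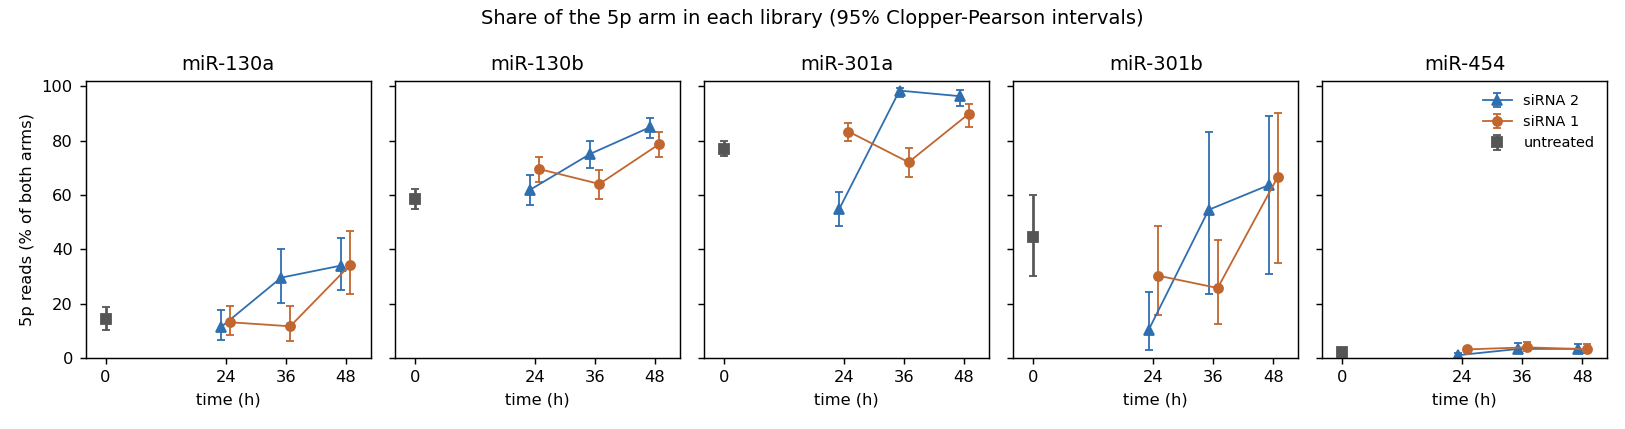
Share of the 5p strand among all reads of each hairpin (in %, with 95% Clopper-Pearson intervals) in each library against hours of siRNA treatment, with siRNA 2 as triangles, siRNA 1 as circles and the untreated library as a square at 0 h. The 5p share of miR-130a is 34.0% and 34.3% at 48 h with siRNA 2 and siRNA 1 against 14.2% in the untreated library, that of miR-130b is 85.1% and 78.8% against 58.6%, and that of miR-454 is at most a few percent throughout.

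The difference between 48 h and 24 h in the log2 ratio of 5p to 3p reads was tested with limma over 110 hairpins with both arms measured, a test added after these values were seen. It was 1.88 ± 0.71 for miR-130a (SE, limma adjusted p = 0.207), 1.25 ± 0.57 for miR-130b (adjusted p = 0.284), 2.58 ± 1.46 for miR-301a (adjusted p = 0.356) and 0.94 ± 0.63 for miR-454 (adjusted p = 0.461). All 4 were above 0, as were 48 of the 110, and the median of the 110 was -0.11. No hairpin was called (0.0%), with 23 of 110 at an unadjusted p under 0.05. Without both 36 h libraries 26 of 110 hairpins (23.6%) were called, 10.9% towards the 5p strand, and miR-130a (adjusted p = 0.0212) and miR-301a (adjusted p = 0.0283) were among these, while miR-130b (adjusted p = 0.0815) and miR-454 (adjusted p = 0.232) were not.

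Against the untreated library, the 3p strands were lower at 48 h but, as a group and on the TMM scale, not at 24 h. miR-301b-3p was above it in both 24 h libraries, at a log2 fold change of 1.12 ± 1.02 (edgeR, adjusted p = 0.997). The median log2 fold change of the 5 strands of the 3p arm was 0.08, -0.31 and -1.02 after 24, 36 and 48 h, beside -0.04, -0.03 and -0.02 over all miRNAs tested. For the 5p strands of miR-130a and miR-130b the medians were -0.04, 0.28 and 0.70. edgeR called 0 of 7 members and 0 of 458 miRNAs (0.0%) at each time and over all times together, with 11, 19 and 53 miRNAs at an unadjusted p under 0.05 at 24, 36 and 48 h and 23 over all times. DESeq2 called 1 (0.218%), 7 (1.53%) and 12 (2.62%) miRNAs at the 3 times and 1 over all times, none of them a member, and limma-voom called 0. At 48 h the values were -2.67 ± 1.35 for miR-301a-3p (adjusted p = 0.371), -1.48 ± 1.10 for miR-301b-3p (adjusted p = 0.547), -1.02 ± 0.49 for miR-130b-3p (adjusted p = 0.367), -0.92 ± 0.50 for miR-130a-3p (adjusted p = 0.382) and -0.89 ± 0.38 for miR-454-3p (adjusted p = 0.367). These comparisons share the untreated library, and that at 48 h shares its libraries with the comparison to 24 h.

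Without both 36 h libraries, miR-301a-3p (-2.63 ± 0.44, adjusted p = 1.0e-07), miR-454-3p (-0.85 ± 0.28, adjusted p = 0.0158) and miR-130b-3p (-0.97 ± 0.36, adjusted p = 0.0323) were called lower at 48 h than in the untreated library, in a fit that called 25.1% of 467 miRNAs. The untreated condition has 1 library, which the fit takes to vary as the others do. The p-values of this fit, too, rest largely on a spread pooled over all miRNAs tested. The share of reads assigned to miRNAs was lower in each siRNA-treated library than in the untreated one, and, scaled to all reads, the median of all 458 miRNAs was -1.14 at 48 h over untreated. On that scale all 5 strands of the 3p arm were called lower at 48 h (25.8% of miRNAs called), and miR-130a-5p and miR-130b-5p stood at -0.38 and -0.42, so their direction against the untreated library depends on the scale. The 5p strands stayed above 0 at 48 h over 24 h on every scale run, with a median of 0.56 when scaled to all reads.

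The siRNAs differed most at 36 h, and miR-301a-3p was the extreme. Its log2 CPM with siRNA 2 minus that with siRNA 1 was 0.83 (24 h), -4.15 (36 h) and -1.45 (48 h), and at 36 h no other of the 458 miRNAs tested had a lower value. miR-301b-3p had 1.03, -2.33 and -0.05 at the same times. miR-454-3p had 0.07, -0.72 and -0.23, which is a small part of the range of miR-301a-3p. All 5 strands of the 3p arm were lower with siRNA 2 than with siRNA 1 at 36 h, as were 53.3% of the miRNAs tested. In edgeR's test of siRNA 2 against siRNA 1 over the 3 times, with time as a factor, 0 of 7 members and 0 of 435 miRNAs (0.0%) were called. An unadjusted p under 0.05 was reached by 6, and DESeq2 and limma-voom called 0. miR-301a-3p had -1.44 ± 1.05 in that test (adjusted p = 0.992), and 0.12 ± 0.49 without both 36 h libraries. With 2 libraries to a time, a difference of the siRNAs' effects cannot be told apart from a library that stands apart at 36 h or has another time than its label.

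**Figure D4:**
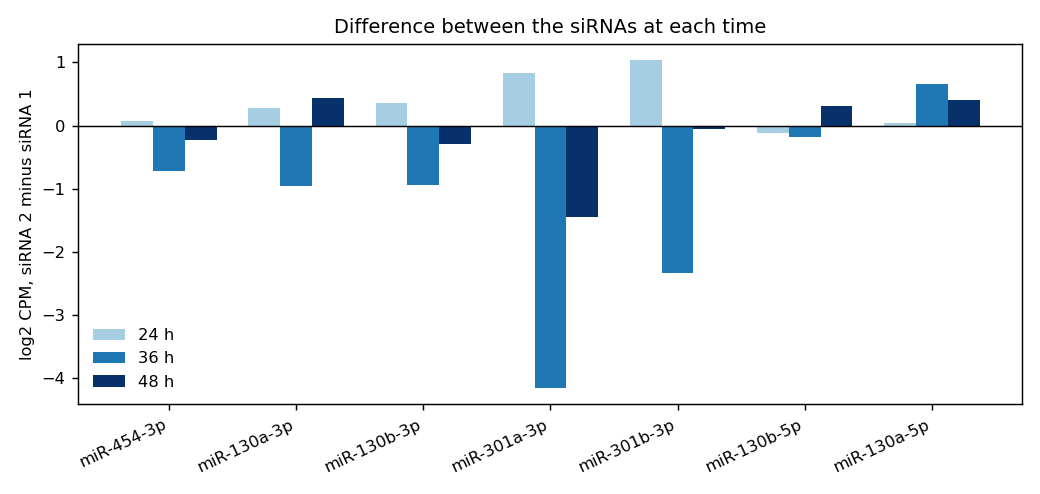
log2 CPM with siRNA 2 minus log2 CPM with siRNA 1 (1 library each) for the 7 members at 24 h (light), 36 h (medium) and 48 h (dark). At 36 h all 5 strands of the 3p arm lie below 0, from -0.72 for miR-454-3p to -4.15 for miR-301a-3p, while miR-130a-5p lies at 0.65.

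Markers of blood and of fibroblasts and endothelium differed between 24 h and 48 h. Those of muscle did so by far less, but stood far higher in the siRNA 1 library of 36 h. For blood, with 5 of 5 markers in the files and 2 with reads in every library, the summed level was 13.8 CPM in the untreated library, 14.8 to 15.9 CPM at 24 h, 77.6 and 25.3 CPM at 36 h (siRNA 2 and siRNA 1) and 37.1 to 44.5 CPM at 48 h. Most of it was the red cell miRNA miR-451a, at 32.1 and 41.9 CPM at 48 h, while the white cell miRNA miR-142-3p had 1.24 to 3.04 CPM over all siRNA-treated libraries and 1.86 CPM in the untreated one. miR-223-3p had no read in any library. For fibroblasts and endothelium, with 5 markers, it was 458 CPM in the untreated library, 442 to 505 CPM at 24 h, 1067 and 1065 CPM at 36 h (siRNA 2 and siRNA 1) and 836 to 839 CPM at 48 h. The 4 hepatocyte markers summed to 21011 CPM in the untreated library, 17979 to 27464 CPM at 24 h, 17017 and 16102 CPM at 36 h (siRNA 2 and siRNA 1) and 16945 to 20663 CPM at 48 h. Most of this sum was miR-148a-3p, at 18414 CPM in the untreated library, so it hides the other markers. With siRNA 2 and siRNA 1, miR-192-5p had 1873 and 2177 CPM at 24 h and 2917 and 3064 CPM at 48 h. miR-194-5p had 68.6 and 88.3 CPM at 24 h and 88.9 and 83.8 CPM at 48 h. The defining hepatocyte marker miR-122-5p, which HepG2 cells are known to have lost for the most part, had 45.5 CPM in untreated cells. It had 32.2, 47.6 and 4.37 CPM with siRNA 1 at 24, 36 and 48 h. With siRNA 2 it had at most 6.60 CPM at any of these times, and 3.75 CPM at 48 h. Unlike miR-192-5p, it was thus far lower at 48 h than in the untreated library with both siRNAs. At 24 h and 36 h the siRNAs differed. The 3 muscle markers summed to 23.1 CPM in the untreated library, 21.0 to 28.0 CPM at 24 h and 26.3 to 27.1 CPM at 48 h, but to 876 CPM in the siRNA 1 library of 36 h, where miR-1-3p had 867 CPM, against 20.7 to 52.4 CPM of miR-1-3p in the other siRNA-treated libraries and 22.6 CPM in the untreated one. The part of any of these in the members' values was not tested.

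Other miRNAs with the same or a neighbouring seed give the setting of these values. The files list 7 miRNAs with AGUGCAA at bases 2 to 8, and the 2 that are no members, miR-3666 and miR-4295, had 0 reads in every library. A further 9 share 6 of these letters shifted by 1 base, and 5 of them averaged at least 50 reads a library. The largest fold change of 48 h over 24 h among these 5 was that of the miR-19 pair, guides of the growth-promoting miR-17-92 cluster.
miR-19a-3p: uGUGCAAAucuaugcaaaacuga
miR-19b-3p: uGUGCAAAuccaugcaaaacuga
miR-148a-3p: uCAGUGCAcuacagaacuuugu
miR-19a-3p had 20.9 and 24.9 CPM at 48 h with siRNA 2 and siRNA 1, against 121 and 114 CPM at 24 h. Its log2 fold change of 48 h over 24 h was -2.36 ± 0.64 (edgeR, adjusted p = 0.244), and that of miR-19b-3p was -2.41 ± 0.75 (adjusted p = 0.244). The other 3 are the abundant liver miRNA miR-148a-3p and its relatives miR-148b-3p and miR-152-3p, at -0.39 ± 0.29, -0.73 ± 0.35 and -0.33 ± 0.29 (adjusted p = 0.473, 0.302 and 0.540). Without both 36 h libraries, miR-19a-3p, miR-19b-3p and miR-148b-3p were called lower, and miR-148a-3p and miR-152-3p were not.

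The mean log2 profile of the 5 strands of the 3p arm over the 7 libraries was set against those of the 271 other miRNAs that averaged at least 50 reads a library. The nearest by root mean square difference of centred log2 CPM were miR-582-3p (0.18), miR-769-5p (0.20), miR-24-1-5p (0.22), miR-378c (0.27) and miR-17-5p (0.29). The members themselves lay at 0.39 (miR-130a-3p) to 0.92 (miR-301a-3p) from their own mean, so these 5 others were nearer to it than any member was. The 5 others were picked as the nearest of 271 and the members were not picked by nearness, so this does not compare the family's likeness with theirs. The 5p strands lay at 0.99 (miR-130b-5p) and 1.16 (miR-130a-5p). Without both 36 h libraries, 3 of these 5 were again among the nearest 5, which were miR-582-3p (0.12), miR-24-1-5p (0.14), miR-96-5p (0.17), miR-769-5p (0.19) and miR-7-1-3p (0.26), with miR-454-3p as near as the last of them (0.26). miR-582-3p, the nearest, had 8356 CPM in the untreated library, then 10815, 2044 and 2390 CPM with siRNA 2 and 6794, 6769 and 3047 CPM with siRNA 1 at 24, 36 and 48 h. As in the family mean, its siRNA 2 library of 36 h was lowest and that of 24 h highest, but it was picked on these same values. The siRNA 1 library of 36 h stood above the untreated one in the family mean (0.77 and 0.53, centred log2 CPM). In miR-582-3p it stood below the untreated one (0.48 and 0.79).

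For the hosts, 2 promoters could be searched for GGAATG, the core of the sequence that TEAD factors bind, or CATTCC on the other strand. The SKA2 promoter is printed because 2 of the 3p strands, miR-301a-3p and miR-454-3p, lie in that gene. RefSeq's window of 250 bases before and 50 after the gene's start (GRCh38.p14, chr17:59155137-59155436, minus strand) held 1 match, shown in capitals, from base 255 of the window.
SKA2 promoter: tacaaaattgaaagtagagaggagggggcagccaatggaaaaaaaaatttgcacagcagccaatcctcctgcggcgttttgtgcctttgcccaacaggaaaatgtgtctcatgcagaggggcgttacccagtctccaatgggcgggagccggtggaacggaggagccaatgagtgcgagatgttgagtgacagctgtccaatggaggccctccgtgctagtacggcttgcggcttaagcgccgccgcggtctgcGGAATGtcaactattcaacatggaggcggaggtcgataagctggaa
The promoter of MIR130AHG, the host gene of miR-130a in RefSeq, held 0. Of 35116 promoters of the same length, 14.0% held at least 1 match, so a match is common, and no binding was measured here.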

How the data were processed

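Small RNA libraries of HepG2 cells were made from total RNA with the NEBNext small RNA kit, per the labels' protocols. The authors deposited 1 table for each of the 7 libraries with whole-number read counts for 2652 miRNAs, their mature sequences and the reads assigned to no or to several features. Aligner, counter and genome build: not given in the sources used here. Rows that name no miRNA (56.9% to 86.6% of reads) stayed out of library sizes and tests.

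Counts were fitted with edgeR 4.0.16 (quasi-likelihood, TMM scaling, at least 10 reads on average over libraries, Benjamini-Hochberg threshold 0.05), in 1 fit with time as the group, and siRNA 2 against siRNA 1 over the 6 treated libraries with time as a factor. The SE is the fold change over the root of F. The fit was tried on simulated counts with the same spread for all libraries, which does not cover a pair as far apart as that of 36 h. DESeq2 1.42.0, limma 3.58.1 (voom), other scales and filters, the GC trend and left-out libraries were alternatives. Arm ratios used log2 with 0.5 added to each count. The 5 nearest profiles, the further arms, and the same-seed and shifted-seed miRNAs were named by a fixed rule. Coordinates are RefSeq's GRCh38.p14. Members and lists were chosen with earlier results of these data known.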

Additional observations from a re-analysis of the deposited data

Results flagged for a closer look

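Over 7 members and 5 contrasts of time, the siRNAs moved a member in opposite directions in 11 of 35 results, each siRNA with 1 library a time, and none of these differences was tested. How often the other miRNAs did so was not computed, so whether 11 of 35 is many cannot be said. Differences below are the log2 change with siRNA 1 minus that with siRNA 2. In 4 of the 11, the changes with both siRNAs lay beyond their own 95% exact binomial counting intervals. Such intervals leave out the spread between libraries, which far exceeds counting error. Over the miRNAs tested, chi-square per degree of freedom between the libraries of a time was 318, 450 and 40.2 at 24, 36 and 48 h. For miR-301a-3p at 36 h over 24 h the difference was 5.48, from a change of -4.89 with siRNA 2 and 0.59 with siRNA 1. For miR-301b-3p over the same times it was 3.78, from -2.83 with siRNA 2 and 0.95 with siRNA 1. For miR-130b-3p it was 1.32, from -0.69 with siRNA 2 and 0.63 with siRNA 1. The last of these was miR-301a-3p at 24 h over untreated, at -0.85, from 0.34 with siRNA 2 and -0.51 with siRNA 1.

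In the other 7, at least 1 of the changes was within its counting interval. For miR-130a-3p the difference was -0.28 at 24 h over untreated, 0.97 at 36 h over untreated and 1.25 at 36 h over 24 h. At 36 h over untreated it was 0.95 for miR-130b-3p, 4.63 for miR-301a-3p, 2.67 for miR-301b-3p and -0.71 for miR-130a-5p. Of the 11 results, 9 rest on the 36 h libraries.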

How the results depend on the processing

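Of 716 values of single members under an alternative, 601 kept their direction and side of the threshold, 66 passed the threshold in the same direction and 49 changed sign. With the siRNA number as a replicate block, 0 members were called in each comparison, and miR-301a-3p at 24 h over untreated changed sign, to 0.30. That number marks the reagent, not a batch, and correlations of same-numbered libraries' deviations were 0.10, -0.25 and -0.16. No member was called at 24 h over untreated or between siRNAs under any alternative run.

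Leaving out 1 library at a time, the members called ranged from 0 to 1 over all times, 0 to 4 at 48 h over untreated and 0 to 4 at 48 h over 24 h. The counts above 0 came from leaving out a 36 h library. That of siRNA 1 gave 1 (14.2% of miRNAs called), 3 (20.5%) and 4 (26.6%) in this order. That of siRNA 2 gave 0 (6.71%), 4 (24.5%) and 4 (28.4%). At 36 h over untreated, leaving out either sets 1 library against 1, so only fold changes are given. The median log2 fold change of the 5 strands of the 3p arm was then -1.15 without the siRNA 1 library and 0.09 without that of siRNA 2. Without both 36 h libraries, 1 member was called over all times (10.7% of miRNAs called). That fit gave 3 at 48 h over untreated (25.1%) and 4 at 48 h over 24 h (28.7%). In the order of those last 2 comparisons, total counts as the scale of that fit gave 2 and 5 (24.6% and 34.3%). All reads gave 5 and 2 (39.6% and 12.6%), and the GC trend removed 1 and 3 (21.6% and 25.3%). DESeq2 size factors gave 3 and 4. With all 7 libraries and all reads as the scale, 4 were called over all times (26.2%) and 1 at 36 h (10.7%). That setting gave 5 at 48 h over untreated (25.8%) and 2 at 48 h over 24 h (6.33%). With no count filter there was 1 at 48 h over untreated and 2 at 48 h over 24 h. No share of miRNAs called is given here for DESeq2 size factors or for no count filter. The mean 3p sum relative to untreated was 56.7%, 26.0% and 23.2% at 24, 36 and 48 h when scaled to all reads, and 64.7% at 48 h with total counts.

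Changes of sign were among values that passed no test. Over all times, miR-301b-3p (0.09) was at -0.11 with limma-voom, -1.07 with all reads, -0.00023 with no filter, -0.13 without both 36 h libraries and -0.50 to 0.35 with 1 library left out. With all reads, miR-130a-5p and miR-130b-5p were at -0.81 and -0.71 over all times, -0.95 and -0.89 at 36 h, and -0.38 and -0.42 at 48 h (the same without both 36 h libraries). At 24 h over untreated, all reads gave -0.88 for miR-130a-3p, -0.75 for miR-454-3p and -0.82 for miR-130b-5p. miR-301a-3p (-0.02 at 24 h) was at 0.045 with DESeq2, 0.042 with its size factors, 0.022 at a mean count of at least 50, 0.032 without both 36 h libraries and -0.52 to 0.34 with 1 library left out, and miR-130a-3p at -0.076 to 0.21. At 36 h, total counts gave 0.054 for miR-130a-3p and 0.0016 for miR-130b-3p, and all reads -0.71 for miR-301b-3p. Leaving out 1 library gave -0.78 to 0.15 for miR-130a-3p, -0.82 to 0.087 for miR-130b-3p, -4.48 to 0.083 for miR-301a-3p, -1.18 to 1.43 for miR-301b-3p and -0.18 to 0.56 for miR-130a-5p.

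For siRNA 2 against siRNA 1, leaving out both 36 h libraries gave 0.45 for miR-130a-3p, 0.16 for miR-130b-3p, 0.12 for miR-301a-3p, 0.87 for miR-301b-3p and 0.020 for miR-454-3p. Leaving out 1 library gave -0.33 to 0.43, -0.60 to 0.13, -3.07 to 0.13 and -1.56 to 0.88 for the first 4, and -0.14 to 0.17 for miR-130b-5p, which was at -0.020 with all reads. miR-130a-3p was at 0.081 with the GC trend removed. The cause of these changes was not tested. Settings that remove the GC trend, or pair another scale with leaving out 36 h, and the arm-ratio test, were added after the data were seen.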
